A study of Mus musculus with 36 samples.

Results

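The 42 genes described here encode the machinery of DNA replication and of mitosis. They were chosen by name, with histone genes left out, from the 49568 genes listed in each of 2 raw count tables, and were read in every library of both. The S-phase group held 22 genes, the mitosis group held 19, and the remaining member was Cdkn1a, which encodes the cyclin-dependent kinase inhibitor p21. All 42 passed the filter on low counts in every comparison, and their lowest count in any library was 21, for Ccne2 in an IFNγ library.

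In a cycling cell, cyclin E with its kinase and the E2F transcription factors switch on the replication genes as the cell leaves G1, and the MCM helicase, loaded on DNA with the help of Cdt1 and Cdc6, is activated together with Cdc45 and the GINS complex. Mitosis genes are transcribed later, under Foxm1 and B-Myb, so that Cdk1 with cyclin B, the Aurora and Polo kinases, the spindle checkpoint and Cdc20 accumulate as the cell approaches division. p21, the product of Cdkn1a, restrains the kinases of both steps, and IFNγ is known to slow the cycle of macrophages. A level in a bulk library is an average over cells, so a change in the share of cells that are in a phase and a change in the RNA per cell cannot be told apart here.

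All libraries came from RAW264.7, a mouse macrophage cell line, so that the libraries of a group are cultures of 1 line. In each table, 6 libraries were labelled PBS, 6 were labelled with the peptide 65–79*SE (the shared epitope sequence of HLA-DRB1*04:01) and 6 with 65–79*PE (the protective epitope sequence of HLA-DRB1*04:02). Both peptides were given at 100 µg/ml together with 5 ng/ml of IFNγ in one table and 5 ng/ml of Il-4 in the other, for 72 h. The study states that its 6 biological replicates came from 2 independent experiments. The labels do not say which replicates belong to which experiment, and replicates 1–3 and 4–6 are shown apart throughout. The titles of the PBS libraries carry the name of a cytokine while their treatment label is PBS alone, so SE vs PBS and PE vs PBS compare a peptide and a cytokine together with neither, and SE vs PE is the comparison in which the peptide alone differs by the labels.

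Library totals were 20.7–63.2 M counts in the IFNγ table and 17.05–30.6 M counts in the Il-4 table. The 6 IFNγ-induced genes used as a check (mean log2 of CPM plus 0.1, where CPM are counts per 1000000 counts of the library) averaged −1.01 and −0.92 in PBS replicates 1–3 and 4–6, 6.01 and 5.93 with PE, and 6.11 in SE replicates 1–3, but −1.13 in the libraries labelled SE replicates 4–6. These 3 libraries thus showed no IFNγ response, and wherever they enter, the peptide and the cytokine cannot be told apart. The same mean over IL-4-induced genes in the Il-4 table was −2.81 and −2.95 in PBS, −0.45 and −0.73 with SE and −0.51 and −0.82 with PE. This mean rests mainly on Arg1 and Mgl2 (up to 11.4 and 77.9 CPM). Of the other genes in it, Retnla and Ccl17 were at 0 CPM in every library, Chil3 reached 0.0572 CPM and Ccl22 reached 0.503 CPM. All 7 macrophage markers were above the limit that a count of 0 allows in 18 of 18 libraries of each table, whereas the T cell genes Cd3e, Cd3d and Cd8a were at or under it. Of the other T cell genes, Lck, a Src-family kinase, was above it in 18 of 18 libraries of each table (7.24–18.4 CPM in the IFNγ table and 5.87–15.0 CPM in the Il-4 table), and Cd4 was above it in 14 and 9 libraries, at up to 0.545 and 0.686 CPM. The summed CPM of replication-dependent histone genes, whose transcripts mostly lack poly(A), ranged from 63.8 to 164 in IFNγ replicates 1–3 and from 2596 to 7172 in replicates 4–6 (54.3–140 and 3426–14523 in the Il-4 table), so the 2 sets of replicates also differed as libraries. Histone, Rn7s and mitochondrial genes together held 1.63–3.58% of counts in IFNγ replicates 1–3 and 18.9–26.0% in replicates 4–6. In the Il-4 table these shares were 1.51–3.26% and 4.21–10.8%. Within sets, PBS replicate 6 of the IFNγ table was low in both groups of genes, PBS replicate 1 of that table was high in S-phase genes, Il-4 PBS replicate 4 was high in both groups and Il-4 SE replicate 4 was low in both. Counts and medians without these libraries stand beside the comparisons within a set that they enter.

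With PE and IFNγ, a few replication genes fell against PBS and genes of mitosis rose, the latter mainly in replicates 4–6. In replicates 1–3, 6 of 22 S-phase genes were called (1 higher, 5 lower) and 3 of 19 mitosis genes (all higher), where called means an adjusted p under 0.05 over all genes tested and a fold above 1.5 and where 19.8% of all genes tested were called (10.3% higher and 9.54% lower). Replicates 4–6 had 3 S-phase genes lower and 13 mitosis genes higher, against 10.8% of all genes tested (6.16% higher and 4.66% lower). The median log2 fold change of the S-phase group was −0.05 and −0.13 in the 2 sets and that of the mitosis group 0.26 and 0.70, beside 0.00 for all genes tested in both sets.

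**Figure D1:**
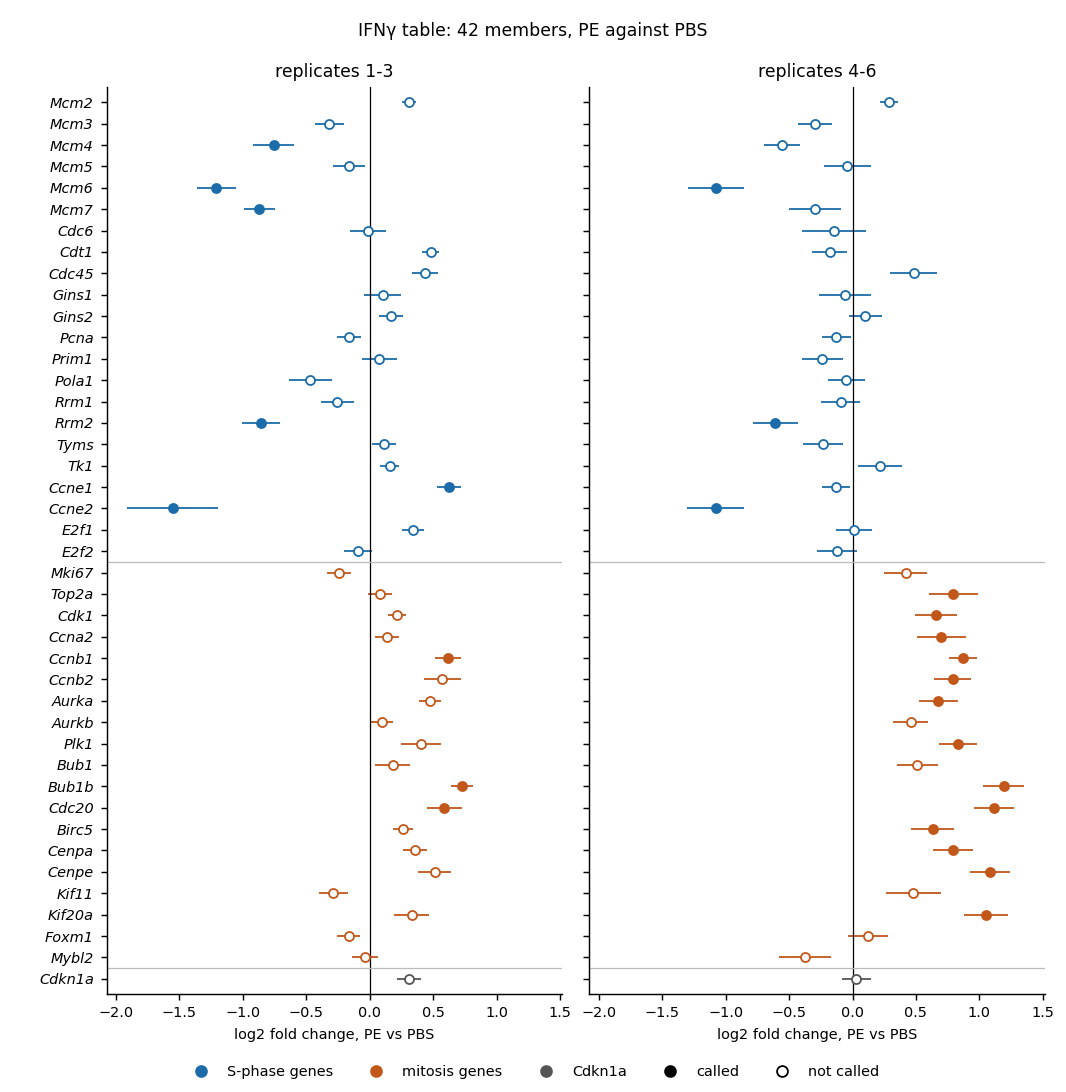
Log2 fold change of each of the 42 genes in PE vs PBS of the IFNγ table (horizontal axis), for replicates 1–3 and 4–6, with bars of 1 standard error and filled points for called genes. Mcm6, Rrm2 and Ccne2 lie to the left and Ccnb1, Bub1b and Cdc20 to the right in both sets.

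In all, 6 members were called in the same direction in both sets, which is 6 of the 9 called in replicates 1–3 and 6 of the 16 called in replicates 4–6. How often calls over all genes recurred between the sets is not given, so this overlap describes the members alone. None was called in opposite directions. Mcm6, a subunit of the replicative helicase, measured 101, 67.3 and 54.7 CPM in PBS and 31.6, 31.5 and 30.5 CPM with PE in replicates 1–3. Mcm6 in replicates 4–6 measured 61.5, 54.2 and 29.1 CPM in PBS and 22.7, 24.6 and 21.4 CPM with PE. Every PE library was below every PBS library of its set, and the PBS libraries were spread more widely than the PE libraries. The log2 fold changes, given with ± 1 standard error derived from the F statistic of the edgeR test, were −1.21 ± 0.15 (adjusted p = 2.48e-05) and −1.08 ± 0.22 (adjusted p = 0.00354).

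Rrm2, the small subunit of ribonucleotide reductase, which makes deoxynucleotides, was at 45.9, 32.7 and 25.8 CPM in PBS and at 17.8, 20.1 and 18.1 CPM with PE in replicates 1–3. The corresponding values in replicates 4–6 were 32.8, 28.8 and 17.7 CPM and 18.96, 16.4 and 16.8 CPM. The groups of replicates 4–6 overlapped, because PBS replicate 6 was below one PE library. The fall was −0.86 ± 0.15 on the log2 scale in replicates 1–3 (adjusted p = 0.000392) and −0.61 ± 0.18 in replicates 4–6 (adjusted p = 0.0266). Ccne2, cyclin E2, was the S-phase member with the largest fall in replicates 1–3, from 4.48, 2.55 and 1.46 CPM in PBS to 0.616, 1.18 and 1.02 CPM. Its values in replicates 4–6 were 14.6, 15.2 and 7.54 CPM in PBS and 5.42, 6.52 and 5.61 CPM with PE. No PE library reached a PBS library in either set, with log2 fold changes of −1.55 ± 0.36 (adjusted p = 0.00287) and −1.08 ± 0.23 (adjusted p = 0.00441). Of the exon bases of Ccne2, 17.4% overlap the antisense gene Ints8, and since the strand setting of the counting is not given in the sources used here, its values are uncertain. The same holds for 7 further members that share over 5% of their exon bases with another gene, among them Gins2 (67.3%), Kif20a (29.3%), Mcm7 (12.6%) and Ccna2 (12.5%).

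These 3 calls in replicates 4–6 depended on single replicates, each left out by its number from all 3 groups. Without replicate 5 the fold changes of Mcm6 (−1.05, adjusted p = 0.0584), Rrm2 (−0.51, adjusted p = 0.239) and Ccne2 (−1.01, adjusted p = 0.0551) were no longer called, and without replicate 4 those of Rrm2 (−0.48, adjusted p = 0.153) and Ccne2 (−0.89, adjusted p = 0.0625) were not. In replicates 1–3 all 3 calls held whichever replicate was left out.

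The other calls in the S-phase group came in replicates 1–3. Mcm4 and Mcm7, further subunits of the helicase, fell by 0.76 ± 0.16 and by 0.87 ± 0.12 on the log2 scale (adjusted p = 0.00163 and 4.51e-05). The Mcm4 fall shrank to −0.50 (adjusted p = 0.000987) without PBS replicate 1 and was then below the fold required. Thus 3 of the 6 MCM genes were lower, while Mcm2 was at 121, 110 and 110 CPM in PBS and 140, 140 and 131 CPM with PE and had a log2 fold change of 0.31 ± 0.05 (adjusted p = 0.000323), short of the fold required. Ccne1, cyclin E1, went the other way from Ccne2, from 16.4, 13.4 and 11.9 CPM in PBS to 21.2, 20.4 and 21.1 CPM with PE, with all PE libraries higher (0.63 ± 0.10, adjusted p = 0.000117). Ccne1 in replicates 4–6 was at 12.6, 12.8 and 10.9 CPM in PBS and 10.1, 12.1 and 10.8 CPM with PE, groups that overlapped (−0.13, adjusted p = 0.438), and the 2 fold changes of Ccne1 differed (−0.72, adjusted p = 0.00532 for the difference between sets). Without replicate 3 the Ccne1 rise in replicates 1–3 was 0.52 (adjusted p = 0.00425) and no longer passed the fold. Pcna, the sliding clamp of the replication fork, was not called in either set, with log2 fold changes of −0.17 (adjusted p = 0.168) and −0.13 (adjusted p = 0.476). None of the 5 genes of licensing and helicase activation (Cdc6, Cdt1, Cdc45, Gins1, Gins2) was called in either set.

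**Figure D2:**
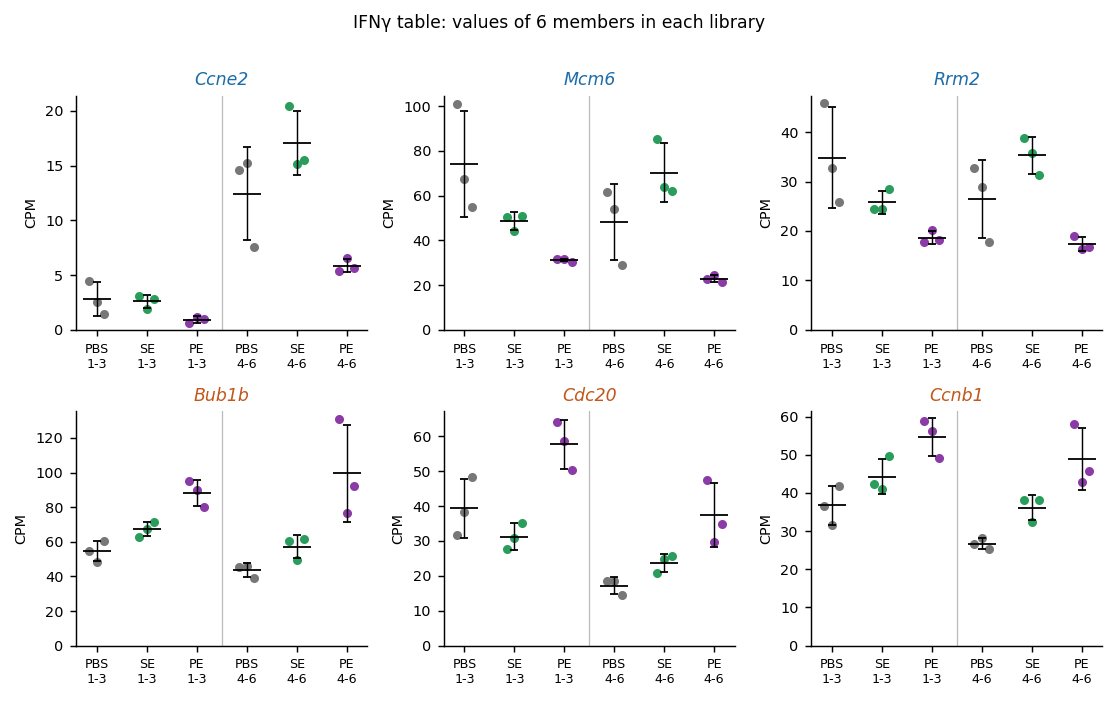
CPM (vertical axis, linear, from 0) of the 6 members called in the same direction in both sets, with each point an IFNγ library, the columns PBS, SE and PE of replicates 1–3 and then of replicates 4–6, and bars for the mean ± SD of 3 libraries. The PE libraries hold the lowest Mcm6 values and the highest Bub1b values of their set.

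Among the mitosis genes, Bub1b, which encodes the spindle checkpoint kinase BubR1, rose in both sets. It was at 54.9, 48.6 and 60.5 CPM in PBS and 94.8, 89.6 and 80.1 CPM with PE in replicates 1–3. The values in replicates 4–6 were 45.7, 46.1 and 39.1 CPM in PBS and 131, 76.3 and 92.0 CPM with PE. The groups did not overlap in either set, and the log2 fold changes were 0.73 ± 0.09 (adjusted p = 1.2e-05) and 1.19 ± 0.16 (adjusted p = 0.000196). Cdc20, the activator of the anaphase-promoting complex, measured 31.6, 38.2 and 48.4 CPM in PBS and 64.0, 58.7 and 50.2 CPM with PE in replicates 1–3, and 18.6, 18.5 and 14.5 CPM against 47.5, 29.7 and 34.9 CPM in replicates 4–6. All PE libraries were above the PBS libraries of their set, by a small margin in replicates 1–3 (0.59 ± 0.14, adjusted p = 0.00327) and by a wide one in replicates 4–6 (1.12 ± 0.16, adjusted p = 0.000296).

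Ccnb1, cyclin B1, the partner of Cdk1 at the entry into mitosis, was at 36.6, 31.7 and 41.9 CPM in PBS and at 58.7, 56.2 and 49.2 CPM with PE in replicates 1–3. Its values in replicates 4–6 were 26.7, 28.1 and 25.3 CPM in PBS and 58.1, 42.7 and 45.7 CPM with PE. No PE library was as low as a PBS library of its set, and the log2 fold changes were 0.61 ± 0.10 (adjusted p = 0.000254) and 0.87 ± 0.11 (adjusted p = 0.000125). In replicates 1–3, Ccnb1 and Cdc20 lay close to the fold required: without replicate 1 their fold changes were 0.54 (adjusted p = 0.00469) and 0.35 (adjusted p = 0.0261), without replicate 2 they were 0.51 (adjusted p = 0.00725) and 0.56 (adjusted p = 0.0406), and neither was then called. Without PBS replicate 1 alone, Cdc20 was at 0.44 (adjusted p = 0.00474) and not called, the members called in replicates 1–3 numbered 7 (3 higher and 4 lower), and the medians were 0.11 for the S-phase group and 0.25 for the mitosis group.

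The rise of the mitosis genes in replicates 4–6 was spread over their roles. All 4 of the cyclins and Cdk1 (Ccna2, Ccnb1, Ccnb2, Cdk1) were higher by 0.66 to 0.87 on the log2 scale, and so were 2 of the 3 kinases (Aurka and Plk1, not Aurkb), 3 of the 4 checkpoint and anaphase genes (Bub1b, Cdc20 and Birc5, not Bub1), 3 of the 4 centromere and motor genes (Cenpa, Cenpe and Kif20a, not Kif11) and Top2a, the topoisomerase that resolves sister chromatids. Foxm1 and Mybl2, the transcription factors of the group, were not called, with log2 fold changes of 0.12 and −0.38. Cenpe, a kinetochore motor, was at 37.5, 37.2 and 31.5 CPM in PBS and 99.1, 59.2 and 67.2 CPM with PE, and PE replicate 4 was the highest library for it as for Bub1b, Cdc20 and Ccnb1. Mki67, the proliferation marker Ki-67, was at 254, 254 and 156 CPM in PBS and 361, 253 and 274 CPM with PE, groups that overlapped, and was not called (0.42 ± 0.17, adjusted p = 0.0973). In replicates 1–3 Mki67 was at 158, 140 and 164 CPM in PBS and 143, 130 and 108 CPM with PE (−0.24 ± 0.09, adjusted p = 0.0503).

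Without PBS replicate 6, the library that was low in both groups of genes, 14 members were called in replicates 4–6, 9 higher and 5 lower, and the medians were −0.28 for the S-phase group and 0.55 for the mitosis group. Birc5, Ccna2, Cdk1 and Aurka were then between 0.45 and 0.55 on the log2 scale and not called, whereas Mcm4 and Mybl2 were called as lower. Over all 18 libraries, with the set as a term, 5 S-phase genes were lower (Mcm4, Mcm6, Mcm7, Rrm2, Ccne2) and 6 mitosis genes higher (Ccnb1, Ccnb2, Bub1b, Cdc20, Cenpe, Kif20a), with 13% of all genes called (6.55% higher and 6.47% lower). The fold changes of 5 members differed between the sets, beside 11.5% of all genes: Cdt1 and Ccne1 were lower in replicates 4–6 relative to replicates 1–3, and Mki67, Top2a and Kif20a were higher. With RLE size factors in place of TMM this count was 2.

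The windows around the transcription start of members called in the same direction in both sets are shown so that the letters in front of the genes that fell can be set beside those of the genes that rose. Each runs from 250 bases before to 50 bases after the start of the gene in RefSeq (GRCm38.p6), is written 5′ to 3′ on the strand of the gene, and has in capitals every match, on either strand, to E2F-site letters (the word TTCCCGC, the word TTGGCGC, the word TTCGCGC or the word TTGCCGC), to the cell-cycle homology region (CHR; TTTGAA or TTCGAA) and to CCAAT. No window was found for Ccne2, which lies at chr4:11191351-11204779 on the plus strand. The 5 windows lie at chr1:128359656-128359955 on the minus strand (Mcm6), chr12:24708004-24708303 on the plus strand (Rrm2), chr13:100786437-100786736 on the minus strand (Ccnb1), chr2:118597961-118598260 on the plus strand (Bub1b) and chr4:118437294-118437593 on the minus strand (Cdc20).
Mcm6: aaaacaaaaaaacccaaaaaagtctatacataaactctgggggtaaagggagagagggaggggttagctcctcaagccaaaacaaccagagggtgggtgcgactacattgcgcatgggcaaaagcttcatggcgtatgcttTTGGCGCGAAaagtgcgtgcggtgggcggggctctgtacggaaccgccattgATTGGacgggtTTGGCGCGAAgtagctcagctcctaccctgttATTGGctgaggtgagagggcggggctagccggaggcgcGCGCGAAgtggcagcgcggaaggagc
Rrm2: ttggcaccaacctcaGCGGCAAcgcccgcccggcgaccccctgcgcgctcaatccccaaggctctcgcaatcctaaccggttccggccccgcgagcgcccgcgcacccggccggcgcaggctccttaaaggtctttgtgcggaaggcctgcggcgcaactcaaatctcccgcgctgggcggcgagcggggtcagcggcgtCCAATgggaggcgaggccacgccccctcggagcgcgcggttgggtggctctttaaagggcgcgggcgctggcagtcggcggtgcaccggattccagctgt
Ccnb1: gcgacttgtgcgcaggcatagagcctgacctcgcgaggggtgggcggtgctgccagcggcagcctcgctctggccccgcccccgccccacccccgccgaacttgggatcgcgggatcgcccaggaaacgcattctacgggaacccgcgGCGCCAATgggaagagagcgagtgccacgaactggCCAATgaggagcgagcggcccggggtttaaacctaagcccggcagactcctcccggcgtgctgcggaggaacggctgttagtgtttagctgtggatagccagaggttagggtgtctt
Bub1b: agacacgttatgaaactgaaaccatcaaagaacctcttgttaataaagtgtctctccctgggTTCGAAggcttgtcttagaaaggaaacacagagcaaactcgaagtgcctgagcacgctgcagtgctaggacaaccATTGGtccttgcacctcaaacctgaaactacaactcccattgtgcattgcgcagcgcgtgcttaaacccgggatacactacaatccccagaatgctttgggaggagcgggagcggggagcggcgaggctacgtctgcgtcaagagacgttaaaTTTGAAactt
Cdc20: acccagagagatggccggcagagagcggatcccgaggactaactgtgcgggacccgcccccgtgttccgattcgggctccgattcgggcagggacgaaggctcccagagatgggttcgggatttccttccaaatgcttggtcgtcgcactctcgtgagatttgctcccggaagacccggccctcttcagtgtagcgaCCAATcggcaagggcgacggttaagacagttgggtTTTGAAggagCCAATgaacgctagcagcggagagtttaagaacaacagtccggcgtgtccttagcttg
The Mcm6 window held 5 matches to the E2F letters, 4 of which overlap in pairs, and 2 CCAAT matches, with no CHR match. The Rrm2 window held 1 E2F match and 1 CCAAT match. Bub1b had 2 CHR matches and 1 CCAAT match, and Cdc20 had 1 CHR match and 2 CCAAT matches, neither with an E2F match. Ccnb1 had 2 CCAAT matches, one of them overlapping its single E2F match, and no CHR match of these letters. Over the windows of all members that had one, the E2F letters were in 12 of 20 S-phase windows (60%) and 3 of 15 mitosis windows (20%), beside 9.57% of all 32851 windows. The CHR letters were in 4 of the 20 (20%) and in 11 of the 15 (73.3%), beside 19.2% of all windows, and CCAAT was in 14 (70%) and 13 (86.7%), beside 37.4%. These are descriptions of letters and say nothing of a factor's binding.

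Between SE and PE under IFNγ, 2 of 22 S-phase genes were higher with SE and 5 of 19 mitosis genes were lower in replicates 1–3. In replicates 4–6, 7 S-phase genes and Mybl2 of the mitosis group were higher and 3 mitosis genes lower, in libraries labelled SE that lacked the IFNγ response. In replicates 1–3, where both peptides came with the IFNγ response, 7 members were called, beside 6.08% of all genes tested (4.48% higher and 1.6% lower): Mcm6 and Ccne2 were higher with SE, and Ccnb2, Plk1, Cdc20, Cenpa and Aurka were lower. The median log2 difference (SE minus PE) was 0.32 over the S-phase group and −0.32 over the mitosis group, beside −0.01 over all genes tested. Mcm6 was at 50.6, 44.0 and 51.0 CPM with SE, above the 3 PE libraries given above (0.63 ± 0.15, adjusted p = 0.0102), and without replicate 3 the difference was 0.58 (adjusted p = 0.0389) and no longer passed the fold. Ccne2 was at 3.08, 1.95 and 2.86 CPM with SE, again above all PE libraries (1.47 ± 0.36, adjusted p = 0.00964).

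**Figure D3:**
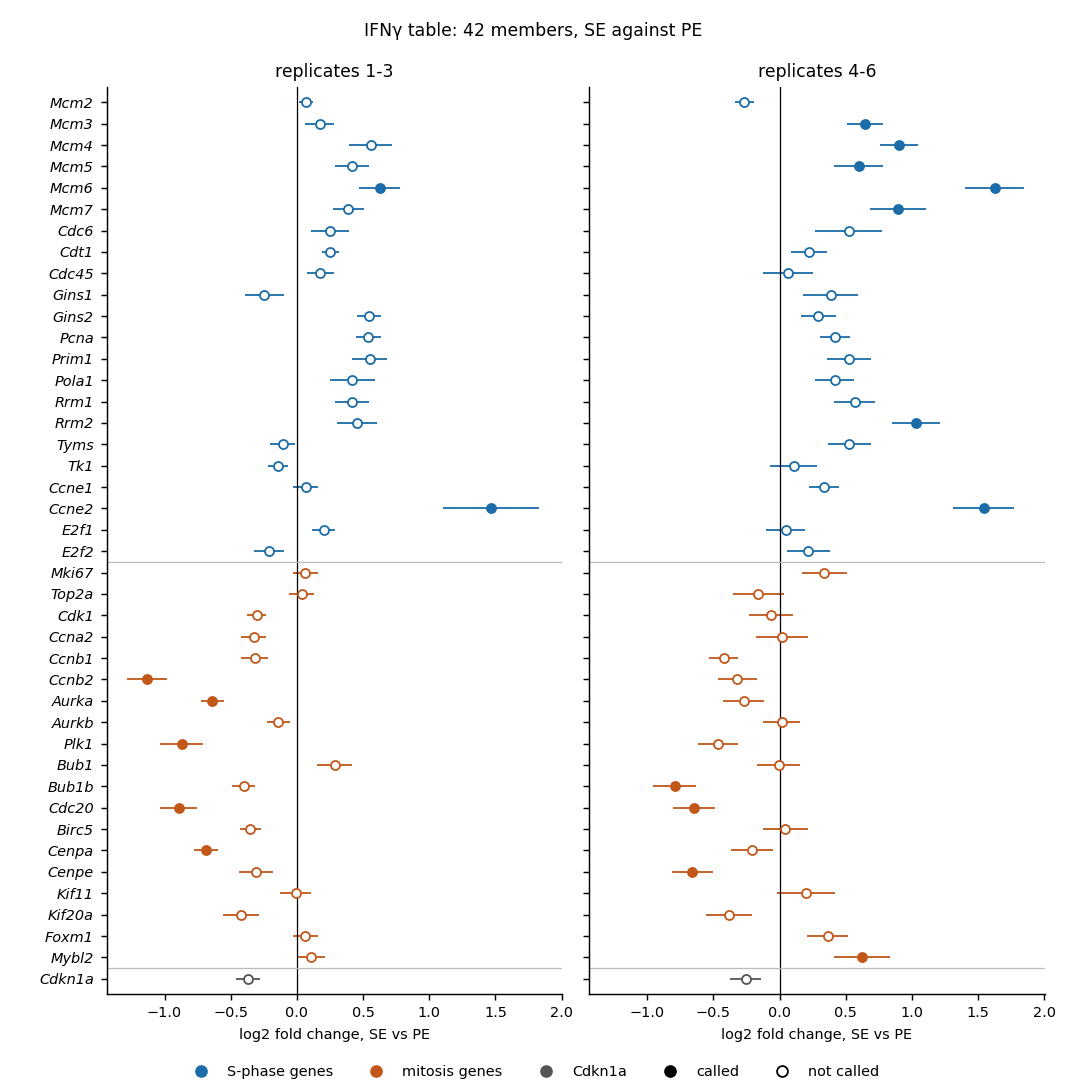
Log2 difference between SE and PE (SE minus PE, horizontal axis) of each of the 42 genes in the IFNγ table, for replicates 1–3 and 4–6, with bars of 1 standard error and filled points for called genes. Mcm6 and Ccne2 lie to the right and Cdc20 to the left in both sets.

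Ccnb2, cyclin B2, showed the largest difference between the peptides among mitosis genes in replicates 1–3, at 15.6, 18.7 and 22.7 CPM with SE and 43.7, 42.4 and 37.7 CPM with PE. PBS lay between them at 23.1, 26.9 and 35.5 CPM, where its highest library was below the lowest PE library and its lowest was just above the highest SE library. The difference between SE and PE was −1.13 ± 0.15 (adjusted p = 0.000154). Cdc20 was at 27.6, 31.0 and 35.3 CPM with SE, below all PE libraries (−0.89 ± 0.14, adjusted p = 0.000501). Plk1, the Polo-like kinase, was at 15.1, 16.7 and 18.1 CPM with SE and 32.8, 29.3 and 28.4 CPM with PE, with no overlap (−0.87 ± 0.16, adjusted p = 0.00155). The remaining calls were Cenpa, the centromeric histone variant (−0.69), and Aurka, the centrosomal Aurora kinase (−0.64), which without replicate 1 was at −0.50 (adjusted p = 0.00214) and not called.

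Several members were not distinguishable between the peptides in replicates 1–3. The difference was 0.07 for Mcm2 (95% interval −0.04 to 0.19), 0.07 for Ccne1 (−0.13 to 0.27) and 0.06 for Mki67 (−0.14 to 0.26). None of these 3 intervals reached the fold of 1.5. Pcna, at 178, 154 and 178 CPM with SE and 114, 120 and 115 CPM with PE, was higher in every SE library and passed the adjusted p but not the fold (0.54, adjusted p = 0.00114). Ccnb1 was at −0.32 (adjusted p = 0.0369) and Cdkn1a at −0.37 (adjusted p = 0.00979), both likewise under the fold required.

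In replicates 4–6, where the libraries labelled SE lacked the IFNγ response, 11 members were called, beside 13.8% of all genes tested (5.91% higher and 7.9% lower). The 7 S-phase genes were all higher with SE, namely Mcm3, Mcm4, Mcm5, Mcm6, Mcm7, Rrm2 and Ccne2, so that 5 of the 6 MCM genes differed. Mcm6 was at 85.3, 63.8 and 61.9 CPM with SE against the 3 PE libraries between 21.4 and 24.6 CPM (1.62 ± 0.22, adjusted p = 0.000178). Ccne2 was at 20.4, 15.2 and 15.5 CPM with SE, above 5.42, 6.52 and 5.61 CPM with PE (1.54 ± 0.23, adjusted p = 0.000338). Mcm2, the remaining MCM gene, was at 117, 119 and 121 CPM with SE and 151, 134 and 146 CPM with PE, lower with SE in every library but under the fold required (−0.27, adjusted p = 0.0142).

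Bub1b was lower in SE replicates 4–6, at 60.2, 49.7 and 61.6 CPM, than in PE (−0.79 ± 0.16, adjusted p = 0.00267). Cenpe was at 47.5, 43.9 and 50.5 CPM with SE and did not reach its PE libraries (−0.66, adjusted p = 0.00661), and Cdc20 was at 20.7, 24.8 and 25.6 CPM (−0.65, adjusted p = 0.00861). Mybl2 encodes B-Myb and was placed in the mitosis group as a transcription factor of mitosis genes, which does not say when its own RNA is made. It was the 1 gene of that group called as higher with SE (0.62 ± 0.21, adjusted p = 0.0409), at 15.1, 15.5 and 13.0 CPM against 11.2, 7.65 and 9.60 CPM. Without replicate 4, Cdc20 (−0.36, adjusted p = 0.102), Cenpe (−0.42, adjusted p = 0.0376), Mcm5 (0.66, adjusted p = 0.0548) and Mybl2 (0.72, adjusted p = 0.0506) were not called, and without replicate 5, Mcm5 (0.54, adjusted p = 0.179), Mcm7 (0.90, adjusted p = 0.0638) and Mybl2 (0.45, adjusted p = 0.3) were not. Pcna (0.42), Ccne1 (0.34), Mki67 (0.34), Ccnb1 (−0.42) and Cdkn1a (−0.26) were not called.

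Mcm6, Ccne2 and Cdc20 were called in the same direction in both sets, which is 3 of the 7 called in replicates 1–3 and 3 of the 11 called in replicates 4–6. Here too the recurrence of calls over all genes is not given. The differences of 4 members changed between the sets, beside 28.8% of all genes, these being Mcm2, Mcm6, Tyms and Ccnb2. Ccnb2, for one, was called in replicates 1–3 and not in replicates 4–6, and its difference moved by 0.80 between the sets. Over all 18 libraries, which include the 3 labelled SE that lacked the IFNγ response, Mcm4, Mcm6, Mcm7, Rrm2 and Ccne2 were higher and Ccnb2, Plk1, Bub1b and Cdc20 were lower with SE, beside 3.19% of all genes (2.02% higher and 1.17% lower).

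SE vs PBS had 5 of 42 members called in replicates 1–3, a share near the 12.6% of all genes tested that were called as higher (22.8% in either direction). The 5 were S-phase genes and were higher, with medians of 0.09 and −0.09 for the 2 groups. Of the 5, 3 belong to licensing and helicase activation. Cdt1, which loads the MCM helicase on origins, was at 67.1, 63.5 and 61.3 CPM in PBS and 103, 98.1 and 112 CPM with SE (0.73 ± 0.07, adjusted p = 7.18e-07). Gins2, a subunit of the GINS complex, was at 15.7, 12.6 and 12.2 CPM in PBS and 21.1, 21.8 and 22.1 CPM with SE (0.71 ± 0.09, adjusted p = 1.91e-05). All SE libraries were above all PBS libraries for both genes, but most exon bases of Gins2 overlap the antisense gene Gse1, as given above. Ccne1 rose to 22.5, 21.6 and 22.1 CPM, above every PBS library (0.69 ± 0.10, adjusted p = 3.72e-05). Prim1, a primase subunit (0.63, adjusted p = 0.00148), and Cdc45 (0.61, adjusted p = 0.000225) lay nearer the fold required: without replicate 3 they were at 0.42 (adjusted p = 0.0366) and 0.47 (adjusted p = 0.00955), without replicate 2 Cdc45 was at 0.57 (adjusted p = 0.00651), and they were then not called.

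Without PBS replicate 1, the library that was high in S-phase genes, 8 members were called in SE vs PBS replicates 1–3, 6 higher and 2 lower. E2f1 was added among the higher genes, Ccnb2 and Plk1 were the lower ones, and the medians were 0.39 and −0.10. Mcm2 (0.38, adjusted p = 4.4e-05) and Pcna (0.37, adjusted p = 0.00468) passed the adjusted p but not the fold, and Mki67 (−0.18), Ccnb1 (0.30) and Cdkn1a (−0.06) were not called. Mcm2 measured 148, 145 and 144 CPM with SE, above every PBS library of its set.

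In replicates 4–6, the libraries labelled SE, which had no IFNγ response, had 0 members called against PBS by edgeR, beside 0.72% of all genes tested, although 41 of 42 fold changes were positive. The share of positive fold changes over all genes is not given, so sign counts here describe the members alone. At an unadjusted p under 0.05 there were 29 members and 2680 of 15563 genes, and DESeq2 called 5 members. The medians were 0.35 and 0.49 for the S-phase and mitosis groups. Mki67 was at 254, 254 and 156 CPM in PBS and 393, 346 and 377 CPM with SE, with every SE library higher, and its fold change of 0.76 ± 0.17 had an adjusted p of 0.0572. Without PBS replicate 6 the count by edgeR was again 0, the medians were 0.15 and 0.40, and 38 of 42 fold changes were positive. The fold changes of 21 members differed between the sets, 8 of the S-phase group and 13 of the mitosis group, beside 35.7% of all genes, with Mki67 0.95 ± 0.22 (adjusted p = 0.00181) and Cdt1 −0.68 ± 0.16 (adjusted p = 0.00271) in replicates 4–6 relative to replicates 1–3. Over all 18 libraries 0 members were called by edgeR and 0 by DESeq2, beside 3.57% of all genes, with 15 members and 4379 of 15949 genes at an unadjusted p under 0.05.

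Cdkn1a was not called in any of the 3 IFNγ comparisons within a set. It was at 203, 258 and 264 CPM in PBS, 215, 234 and 233 CPM with SE and 280, 290 and 305 CPM with PE in replicates 1–3. PE libraries were above all others, yet the fold change against PBS was 0.31 ± 0.09 (adjusted p = 0.0129). Its levels in replicates 4–6 were 65.6, 63.8 and 75.4 CPM in PBS, 52.9, 69.9 and 52.3 CPM with SE and 62.2, 73.1 and 74.0 CPM with PE, groups that overlapped (PE vs PBS 0.03, adjusted p = 0.885). Between the PBS libraries of the 2 sets, Cdkn1a differed by −1.80 ± 0.11 on the log2 scale, lower in replicates 4–6 (adjusted p = 1.05e-06).

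**Figure D4:**
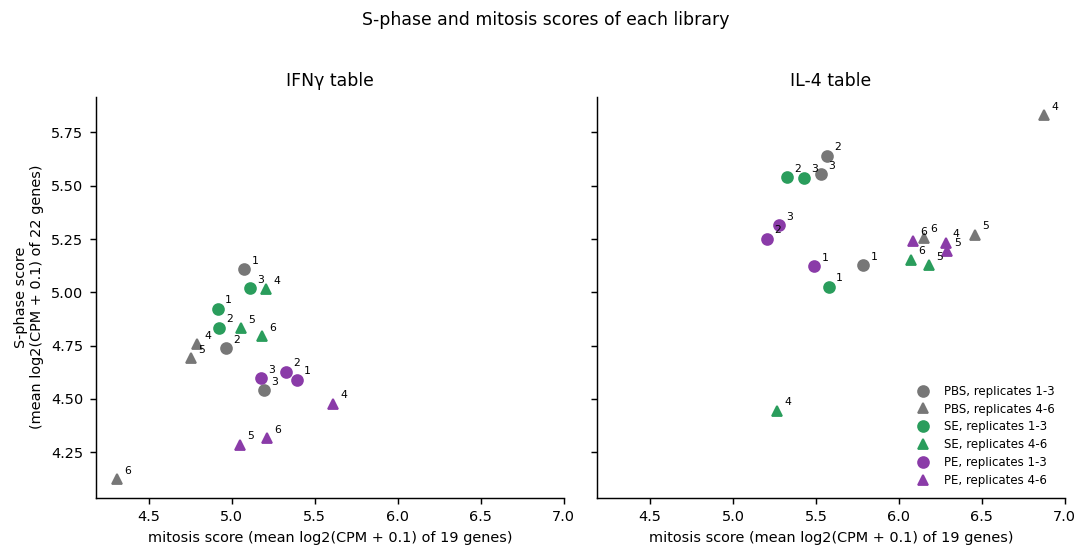
Mean log2(CPM + 0.1) of the S-phase group (vertical axis) against that of the mitosis group (horizontal axis), with each point a library labelled by its replicate number, groups by colour and replicates 1–3 and 4–6 as circles and triangles. IFNγ PE libraries lie on the mitosis side, with S minus mitosis between −1.13 and −0.58. All Il-4 libraries of replicates 4–6, PBS included, lie there too, between −1.19 and −0.82.

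As the mean log2(CPM + 0.1) of each group, the S-phase level minus the mitosis level was −0.80, −0.70 and −0.58 in PE replicates 1–3 of the IFNγ table. It was 0.03, −0.23 and −0.65 in PBS and 0.01, −0.09 and −0.09 with SE in the same set. The difference in replicates 4–6 was −1.13, −0.77 and −0.90 with PE, −0.03, −0.07 and −0.19 in PBS and −0.19, −0.22 and −0.39 in the libraries labelled SE. PBS replicate 3 overlapped the PE libraries in replicates 1–3, and no PBS or SE library overlapped them in replicates 4–6. In the Il-4 table the difference was −1.04, −1.19 and −0.89 in PBS replicates 4–6, and between −1.10 and −0.82 with SE and PE of that set. Il-4 replicates 1–3 ranged from −0.66 (PBS replicate 1) to 0.21 (SE replicate 2). Low values were thus not particular to PE with IFNγ. These means over chosen genes are a description and were given no test. Summed macrophage markers were at 7072 and 4657 CPM in PBS, 5641 and 6945 with SE and 4674 and 5743 with PE (replicates 1–3 and 4–6), and their part in these differences was not tested.

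The PBS libraries of the 2 sets differed widely, in these genes as over all genes tested. The sets are kept apart because they differ in how their libraries were named and in RNA content. In the IFNγ table, 18 members were called in PBS replicates 4–6 vs 1–3 (3 higher and 15 lower), beside 51.2% of all genes (28% higher and 23.2% lower). Ccne2 (2.14) and Pola1, the catalytic subunit of the primase-polymerase (1.10), were the S-phase genes that were higher, and E2f1 (−1.29) and Tk1, thymidine kinase (−1.09), were those that fell most. Among mitosis genes Bub1, a spindle checkpoint kinase, was higher (0.70), and Plk1 (−1.48) and Cenpa (−1.19) fell most. Leaving out replicate 6 gave 17 members called (5 higher and 12 lower), and leaving out replicate 1 gave 18 (3 higher and 15 lower).

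In the Il-4 table, 23 members were called between the PBS sets (17 higher and 6 lower), beside 48.3% of all genes (27.2% higher and 21.1% lower). The mitosis group had a median of 1.11 and 13 of its genes were higher, led by Kif11, the spindle motor Eg5 (2.24), and Bub1 (2.18), whereas the median of the S-phase group was 0.02. Kif11 was at 32.3, 30.3 and 34.0 CPM in PBS replicates 1–3 and 228, 135 and 74.0 CPM in replicates 4–6, so PBS replicate 4 was the highest of a widely spread group. Without replicate 4, 20 members were called (13 higher and 7 lower), with medians of 0.89 for the mitosis group and −0.22 for the S-phase group. Pola1 (1.83) and Ccne2 (1.63) were again the S-phase genes with the largest rise, E2f1 (−1.55) and Ccne1 (−0.84) those with the largest fall, and Foxm1 fell (−0.88) among mitosis genes. Cdkn1a was lower here too (−1.14 ± 0.15, adjusted p = 0.000183). The libraries of these sets also differ in the histone sums given above, and the part of library type or of separate experiments in these differences cannot be told apart.

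With Il-4, the edgeR test with the filter on low counts called 0 members against PBS in replicates 1–3 and 1 in replicates 4–6, where other settings called up to 17. In replicates 1–3, 0 members were called in SE vs PBS, beside 6.44% of all genes, with 10 members and 4275 of 12350 genes at an unadjusted p under 0.05 and 1 member called by DESeq2. The replicate numbers were taken to pair the samples of this set, which the labels do not state. With the replicate as a block 1 member was called, Ccne2 (−0.72 ± 0.16, adjusted p = 0.00687), at 4.20, 8.36 and 6.95 CPM in PBS and 3.12, 4.42 and 3.60 CPM with SE. Each SE library was below the PBS library of its number, while the groups overlapped. PE vs PBS also had 0 calls by edgeR and 0 by DESeq2, beside 3.95% of all genes. At an unadjusted p under 0.05 there were 12 members, and 38 of 42 fold changes were negative. The share of all genes is not given for either count, so both describe the members alone. Mki67, at 224, 250 and 232 CPM in PBS and 175, 176 and 165 CPM with PE, was lower in every PE library (−0.40, adjusted p = 0.0137), and Mcm2 was at 133, 157 and 149 CPM in PBS and 111, 104 and 108 CPM with PE (−0.39, adjusted p = 0.0192), both under the fold required.

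**Figure D5:**
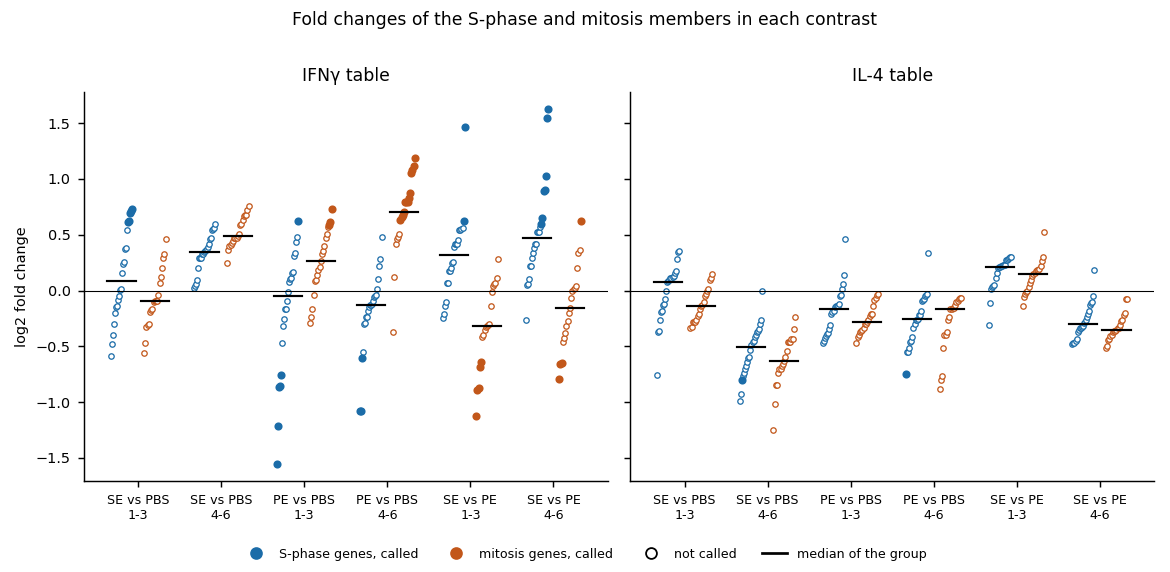
Log2 fold changes of the S-phase and mitosis genes in each comparison of both tables and both sets of replicates, each point a gene, filled where called, and each bar the median of its group. In the Il-4 table the medians lie between −0.64 and 0.22, and in the IFNγ table PE vs PBS has the mitosis group above the S-phase group in both sets.

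In replicates 4–6 with Il-4, Cdt1 was the 1 member called by the edgeR test with the filter, in both SE vs PBS (1.05% of all genes called) and PE vs PBS (2.24%), comparisons that share their PBS libraries. It was at 70.3, 61.3 and 68.5 CPM in PBS, 32.1, 39.7 and 42.8 CPM with SE and 38.7, 38.4 and 41.7 CPM with PE. Both peptide groups were below every PBS library, with log2 fold changes of −0.80 ± 0.12 (adjusted p = 0.0120) and −0.75 ± 0.12 (adjusted p = 0.0122). Without replicate 5 the Cdt1 calls were lost at nearly the same size (−0.89, adjusted p = 0.443, and −0.79, adjusted p = 0.491), likewise without replicate 6 (−0.85, adjusted p = 0.0929, and −0.75, adjusted p = 0.0924), and SE vs PBS lost it without PBS replicate 4 (−0.77, adjusted p = 0.0508). These counts moved with the setting: SE vs PBS had 17 members called with no filter, 6 by DESeq2, 5 with all 18 libraries sharing the spread and 3 with a replicate block, and PE vs PBS had 4 with no filter and 3 by DESeq2, all of them lower. All 42 fold changes of SE vs PBS were negative, with medians of −0.51 and −0.64 for the S-phase and mitosis groups, and 41 of 42 were negative in PE vs PBS, with medians of −0.26 and −0.16. The share of negative fold changes over all genes is not given for SE vs PBS and PE vs PBS, so the sign counts describe the members alone. PBS replicate 4, the library that was high in both groups, and SE replicate 4, which was low in both, belong to these comparisons: without SE replicate 4, SE vs PBS had 1 member called, with medians of −0.33 and −0.37, and without PBS replicate 4 it had 0, with medians of −0.30 and −0.44. Leaving out both libraries labelled replicate 4 with the PE library of that number gave medians of −0.14 and −0.18. Without PBS replicate 4, PE vs PBS had 1 member called, with medians of −0.02 and −0.03 and 24 of 42 fold changes negative. Mki67 was at 797, 579 and 361 CPM in PBS, 260, 587 and 439 CPM with SE and 591, 603 and 463 CPM with PE, groups that overlapped. Ccnb1, at 165, 122 and 84.9 CPM in PBS, 74.7, 110 and 86.7 CPM with SE and 141, 118 and 87.5 CPM with PE, overlapped in the same way.

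Between SE and PE with Il-4, 0 members were called by edgeR in either set, beside 0% of all genes tested, and DESeq2 also called 0. At an unadjusted p under 0.05 there were 5 members and 557 of 12350 genes in replicates 1–3, and 2 members and 1055 of 13472 genes in replicates 4–6. The 95% intervals of the log2 difference in replicates 1–3 ran from 0.02 to 0.39 for Mcm2, from −0.45 to 0.22 for Pcna, from −0.21 to 0.76 for Ccne1, from 0.02 to 0.36 for Mki67, from −0.61 to 0.60 for Ccnb1 and from −0.08 to 0.35 for Cdkn1a. In replicates 4–6 the intervals were −0.05 to 0.42 for Mcm2, −0.70 to 0.02 for Pcna, −0.61 to 0.40 for Ccne1, −1.06 to 0.33 for Mki67, −0.90 to 0.19 for Ccnb1 and 0.07 to 0.73 for Cdkn1a. Among these 6 genes, the intervals of Pcna, Ccne1, Mki67, Ccnb1 and Cdkn1a reach past the fold of 1.5 used for calls in at least 1 set, and that of Mcm2 does not. Leaving out SE replicate 4 left the count at 0 in replicates 4–6. Over all 18 Il-4 libraries 0 members were called by edgeR and by DESeq2 in SE vs PBS, PE vs PBS and SE vs PE, beside 3.1%, 4.35% and 0.00741% of all genes, with 21, 14 and 2 members at an unadjusted p under 0.05. The fold change of Cdt1 in SE vs PBS differed between the sets (−0.91 ± 0.17, adjusted p = 0.0163, beside 4.39% of all genes). No member differed between the sets in PE vs PBS (0.00705% of all genes) or SE vs PE (0%), where 2 and 3 members had an unadjusted p under 0.05. The counts at an unadjusted p over all 18 libraries and between the sets have no share of all genes beside them and describe the members alone.

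Further genes of the same pathways were read for the IFNγ comparisons. Of all genes tested in PE vs PBS, 10.3% were higher and 9.54% lower in replicates 1–3, and 6.16% and 4.66% in replicates 4–6. Of 27 other replication genes, 0 were higher and 3 lower in PE vs PBS replicates 1–3, and 0 higher and 1 lower in replicates 4–6, with medians of 0.02 and −0.09. Gins3, another GINS subunit, was lower in both sets (−0.67 and −0.85), and Uhrf1, which guides maintenance DNA methylation, in replicates 1–3 (−0.67). Of 33 other mitosis genes, 5 were higher in replicates 1–3 and 13 in replicates 4–6, and 0 were lower in either, with medians of 0.26 and 0.54. Ube2c, the ubiquitin-conjugating enzyme of the anaphase-promoting complex, averaged 38.4 CPM in PBS and 79.3 CPM with PE in replicates 1–3. Its averages were 16.9 and 36.5 CPM in replicates 4–6, and the rises were 1.09 and 1.10 on the log2 scale.

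In SE vs PE, 2 of these 27 replication genes were higher with SE in replicates 1–3 and 8 in replicates 4–6, with 0 lower in both, and 3 and 1 of the 33 mitosis genes were lower with 0 higher. Among all genes tested, 4.48% were higher and 1.6% lower in replicates 1–3, and 5.91% and 7.9% in replicates 4–6. In SE vs PBS, 4 replication genes were higher and 1 lower in replicates 1–3, with 2 mitosis genes lower, beside 22.8% of all genes in either direction (12.6% higher). In replicates 4–6, 0 of either list were called, beside 0.72% of all genes, and the medians were 0.33 and 0.47. Among 16 genes of G1 cyclins, their kinases, E2F and RB, 2 were higher in PE vs PBS in replicates 1–3 and 1 in replicates 4–6, beside the shares of all genes given above. Ccnd2, cyclin D2, averaged 3.03 CPM in PBS and 26.9 CPM with PE in replicates 1–3, a rise of 3.19 on the log2 scale. Its averages in replicates 4–6 were 5.50 and 29.3 CPM, a rise of 2.40. It was at 24.0 CPM with SE in replicates 1–3 and at 1.85 CPM in the libraries labelled SE replicates 4–6, which lacked the IFNγ response. Of 6 further CDK inhibitors 3 were tested, and Cdkn1b, which encodes p27, fell in PE vs PBS replicates 1–3 (−0.70), from an average of 14.9 CPM to 8.96 CPM. Its averages in replicates 4–6 were 20.2 CPM in PBS and 22.4 CPM with PE, and its fold changes differed between the sets (0.89, adjusted p = 0.00103). Of 16 p53 target genes, 3 were higher and 3 lower in PE vs PBS replicates 1–3 and 1 was higher in replicates 4–6, again beside the shares of all genes given above for PE vs PBS.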

How the data were processed

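RAW264.7 libraries (36 in all, 18 per table) were read on a HiSeq2500v4. The study names TruSeq Stranded mRNA preparations, and whether these served both replicate sets cannot be told from the labels. Per the study's methods, the authors aligned single reads to GRCm38.p5 and summarised those with a unique alignment over GENCODE M12 genes in featureCounts, and the deposited values are raw counts. The aligner and strand option are not given in the sources used here. The authors' normalization (DESeq2 1.16.1 in R 3.4.1) was not used. Of the gene names, 26 had turned into dates, none of them a member.

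Counts were tested in edgeR 4.0.16 (R 4.3.3) by its quasi-likelihood F test with TMM size factors, filterByExpr and Benjamini-Hochberg adjustment over all genes tested. The 9 libraries of a replicate set, with its 3 groups, shared 1 fit. Fits over 18 libraries had the set as a term or in an interaction. A gene was called at an adjusted p under 0.05 and a fold above 1.5, and differences between sets at the adjusted p alone. DESeq2 1.42.0, RLE factors, no filter, left-out replicates and a replicate block were alternatives. Printed CPM are counts over TMM-scaled totals of all 18 libraries of a table. The scripts were tested on simulated data. No 2 libraries of a table held identical counts, and the lowest chi-square per degree of freedom between replicates was 5.23. A count of 0 allows up to 3 counts, 0.0475–0.145 CPM (IFNγ) and 0.0979–0.176 CPM (Il-4), for counting error only. The labels do not say which libraries came from separate cultures, so p-values measure the spread between these samples. Same-numbered Il-4 libraries of replicates 1–3 deviated together (correlation of deviations from the group means 0.133–0.509 in all 9 pairs), so the number was taken to pair them. The same held for PBS and PE of Il-4 replicates 4–6 (0.214–0.437) and for SE and PE of IFNγ replicates 4–6 (0.101–0.155). Differently numbered Il-4 libraries of replicates 1–3 ranged from −0.361 to 0.227, which overlaps the same-numbered pairs, so the pairing is not certain. Positions come from GENCODE M21 on GRCm38, and 34 of 42 members matched a RefSeq promoter window. The members and gene lists were chosen with earlier results of these data known. Genes were named by a rule: Mcm2, Pcna, Ccne1, Mki67, Ccnb1 and Cdkn1a always, and the 2 largest called rises and falls in each group of genes, with further genes named after their values were seen.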

Additional observations from a re-analysis of the deposited data

Results flagged for a closer look

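The effect of the same contrast differed between replicates 1–3 and 4–6 in some members by the edgeR interaction test with Benjamini-Hochberg adjustment. In the IFNγ table, 21 members differed in SE vs PBS (35.7% of all genes), where 8 were S-phase and 13 mitosis genes, and the libraries labelled SE replicates 4–6 lacked the IFNγ response. In PE vs PBS with IFNγ, 5 members differed (11.5% of all genes), these being Cdt1, Ccne1, Mki67, Top2a and Kif20a, and in SE vs PE 4 members differed (28.8%), these being Mcm2, Mcm6, Tyms and Ccnb2. With Il-4, Cdt1 alone (1 member) differed in SE vs PBS (4.39%). The sets also differ in histone counts, and whether experiment or library preparation goes with these differences cannot be told apart.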

How the results depend on the processing

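Of 162 counts of called members recomputed under the alternatives, 135 stayed within 1.5 times the reported count. In the IFNγ table, SE vs PBS in replicates 4–6 went from 0 calls to 8 with no filter, 7 with a replicate block, 6 with all 18 libraries sharing the spread and 5 by DESeq2. SE vs PBS in replicates 1–3 went from 5 to 8 without PBS replicate 1, and leaving out a replicate number gave 6 to 7. Over all replicates without the set term, PE vs PBS fell from 11 to 6 and SE vs PE from 9 to 1, and with RLE factors the members of PE vs PBS that differed between sets went from 5 to 2. In the Il-4 table, SE vs PBS in replicates 1–3 went from 0 to 1 with no filter, 1 with a replicate block and 1 by DESeq2, and SE vs PBS in replicates 4–6 went from 1 to 17 with no filter, 3 with a block, 5 with all 18 libraries sharing the spread, 6 by DESeq2 and 0 without PBS replicate 4. PE vs PBS in replicates 4–6 went from 1 to 4 with no filter and 3 by DESeq2, and SE vs PBS and PE vs PBS over all replicates each went from 0 to 1 with a block. Leaving out a replicate number gave 0 to 2 (SE vs PBS, replicates 1–3), 0 to 1 (SE vs PBS, replicates 4–6), 0 to 1 (PE vs PBS, replicates 1–3) and 0 to 2 (PE vs PBS, replicates 4–6). The cause was not tested. Of 1139 fold changes of single named members under alternatives, 44 were no longer called and 5 became called. Among those called in the reported test or in the alternative, 0 reversed. For members called in neither, the signs were not compared. The alternatives without 1 single library were chosen after seeing the data. Numbers were taken to pair samples in Il-4 replicates 1–3, PE vs PBS of Il-4 replicates 4–6 and SE vs PE of IFNγ replicates 4–6. In these the block changed no call of a member other than that of Ccne2. In the other comparisons at least 1 same-numbered pair had a correlation of 0.1 or less (all pairs −0.153 to 0.134 in IFNγ replicates 1–3, −0.0538 to 0.155 in IFNγ replicates 4–6 and −0.11 to 0.437 in Il-4 replicates 4–6), so there the libraries share only a number. The 3 libraries a group limit the precision throughout.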
